A study of Mus musculus with 22 samples.

Results

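H3K9 methylation and heterochromatin genes are described here in mouse preimplantation embryos with and without knockdown of the histone variant H2A.Z. The 10 genes were chosen with earlier results of these data known. All 10 were found by gene symbol among the 55335 genes of the expression table. They are the H3K9 methyltransferase genes Setdb1, Suv39h1, Suv39h2, Ehmt1 and Ehmt2, the genes of the SETDB1 partners Trim28 and Atf7ip, and the genes of the HP1 proteins, Cbx1, Cbx3 and Cbx5. RNA-seq of whole embryos compared H2A.Z knockdown (KD) with control at 3 stages (2-cell embryo, morula, blastocyst), to ask how gene expression in the early embryo differs when H2A.Z is depleted. All embryos came from B6D2F1 females mated with B6D2F1 males, and each of the 22 libraries was made from a pool of 15 embryos. The stages correspond, in this order, to 44, 78 and 94 h after the hCG injection that induced ovulation. KD zygotes received about 10 pl of mixed siRNAs against H2A.Z at 20 μM, and the labels do not say whether the control embryos of the RNA-seq were injected. There were 4 control libraries (replicates 1, 2, 4 and 5) and 3 KD libraries (1, 2 and 4) at the 2-cell stage, 4 control (1, 2, 7 and 8) and 3 KD libraries (1, 2 and 6) of morulae, and 4 control (1, 4, 5 and 6) and 4 KD libraries (1, 4, 5 and 6) of blastocysts. Values of single libraries are given in this order.

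Methylation of histone H3 at lysine 9 marks silenced chromatin. SETDB1 is brought to retrotransposons and other targets by TRIM28, which binds the KRAB zinc finger proteins, and ATF7IP stabilises SETDB1 in the nucleus; SUV39H1 and SUV39H2 write trimethylation at pericentric repeats, and EHMT1 and EHMT2 (GLP and G9a) work as a heterodimer that writes mono- and dimethylation. HP1 proteins bind the methylated lysine, and in the early embryo this chromatin is rebuilt while transposable elements and the first zygotic genes are being switched on and then off.

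Expression was measured as FPKM, fragments per kilobase of exon relative to the mapped fragments of the library, as deposited by the authors. The values given for single libraries are those FPKM. Orders and overlaps of libraries are read from them, and the scaling used for the tests can reverse libraries that lie close together. Tests were made with limma on log2(FPKM + 1) after scaling the libraries to each other, so each log2 fold change is on that scale and understates the change of genes with low FPKM. All 10 genes passed the filter on low FPKM, at least 1 FPKM in at least 3 libraries of the fit, in the main fit of each comparison. A gene was called changed at a Benjamini-Hochberg adjusted p under 0.05 over all genes tested. The p-values measure only the spread between these libraries, and neither the labels nor the methods say of these libraries that those of a group came from separate cultures, though the methods describe experiments in general as repeated. In whole embryos, fewer cells of a type and less RNA per cell cannot be told apart.

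The number of reads per library is not in the files. Between 24481 and 29177 genes per library had an FPKM above 0, and between 10143 and 12090 had an FPKM of at least 1. The spacing of the lowest FPKM of genes with a single exon gave a rough depth relative to the shallowest library, which ran from 1.22 to 1.84 in 2-cell controls, 1.40 to 1.82 in 2-cell KD embryos, 1.40 to 1.93 in control morulae, 1.35 to 1.88 in KD morulae, 1.00 to 1.48 in control blastocysts and 1.16 to 1.43 in KD blastocysts. Base composition differed between libraries of the same group. With the genes divided into 4 equal groups by GC content, the difference between the most GC-rich and the most GC-poor of the 4, on the log2 scale and relative to the group of libraries, was largest in control blastocyst replicate 1 (-0.273), control morula replicate 1 (0.249) and KD blastocyst replicate 5 (0.187). Close behind were control blastocyst replicate 5 (0.171) and 2-cell control replicate 4 (0.161). The first 3 were picked after their values were seen, with no clear gap to the next, and calls of the 10 genes that change without these 3 are given both ways.

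The labels were checked on the target genes and on stage markers. H2afz, which encodes H2A.Z, was at 1244, 1236, 905 and 1178 FPKM in the 2-cell controls and at 415, 139 and 112 FPKM in the 2-cell KD embryos. All 3 KD libraries were below all 4 controls, but the log2 fold change of -2.53 was not called at this stage (95% interval -3.38 to -1.69, adjusted p = 0.543, limma). H2afz fell by 5.41 on the log2 scale in KD morulae (adjusted p = 9.71e-08, limma) and by 5.19 in KD blastocysts (adjusted p = 3.63e-08, limma). H2afv, the other H2A.Z gene, was at 111, 118, 96.8 and 113 FPKM in 2-cell controls and at 97.6, 85.4 and 83.7 FPKM in 2-cell KD embryos, which overlapped, and it was not called (-0.23, 95% interval -0.58 to 0.11, adjusted p = 0.840, limma). It was at 97.3, 113, 100.0 and 92.5 FPKM in control morulae and at 12.9, 11.0 and 9.90 FPKM in KD morulae (log2 fold change -2.93, adjusted p = 2.93e-06, limma). In blastocysts H2afv was at 49.9, 62.0, 54.5 and 63.5 FPKM in controls and at 19.9, 16.9, 10.6 and 13.9 FPKM in KD embryos (-1.86, adjusted p = 7.95e-05, limma), so its KD libraries were below all controls at both of these stages. The summed FPKM of the 2-cell markers Zscan4c, Zscan4d and Zfp352 was 171 ± 26.5 (SD, n = 4) in 2-cell controls, 1.64 ± 1.67 in control morulae and 0.434 ± 0.287 in control blastocysts. The summed FPKM of the trophectoderm markers Cdx2, Gata3, Krt8 and Krt18 was 2.37 ± 0.924, 109.9 ± 16.5 and 1178 ± 239.5 (SD, n = 4) in the same order. Markers of cumulus cells were at 0.0500 FPKM or less in every group mean. The control libraries thus showed the marker genes of the stages that their labels give.

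In control embryos the levels of the 10 genes covered a wide range, and FPKM, which is per length, allows them to be ranked. Cbx3 was the most abundant at each stage, with a mean of 203 ± 41.4 FPKM at the 2-cell stage, 236 ± 78.3 FPKM in morulae and 162 ± 68.4 FPKM in blastocysts (SD, n = 4 each). Trim28 was the next, with 32.0 ± 2.19, 49.0 ± 11.8 and 28.4 ± 3.44 FPKM. Neither overlapped with its neighbours in the order at any stage. In 2-cell controls Suv39h2, Suv39h1, Cbx5, Cbx1, Atf7ip, Setdb1 and Ehmt1 followed, each overlapping with the next between libraries, and Ehmt2 was the lowest, apart from the others, at 0.999 ± 0.108 FPKM. In control morulae Cbx1 (10.7 ± 1.76 FPKM) and Cbx5 (9.86 ± 0.642 FPKM) overlapped with each other and stood above Suv39h1, Suv39h2, Setdb1, Atf7ip, Ehmt2 and Ehmt1, whose means ran from 4.05 to 2.05 FPKM with each neighbour overlapping. In control blastocysts the order was Cbx1 and Cbx5, which overlapped, then Suv39h2 and Suv39h1, which overlapped, then Setdb1, Ehmt1, Atf7ip and Ehmt2, in which each neighbour overlapped. In KD embryos Cbx3 and Trim28 also led the order at each stage without overlapping with their neighbours. The lowest KD mean was that of Ehmt2 at the 2-cell stage (1.02 ± 0.361 FPKM, n = 3), Suv39h2 in morulae (2.04 ± 0.792 FPKM, n = 3) and Ehmt1 in blastocysts (2.25 ± 0.635 FPKM, n = 4), of which Suv39h2 and Ehmt1 overlapped with the next gene.

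**Figure D1:**
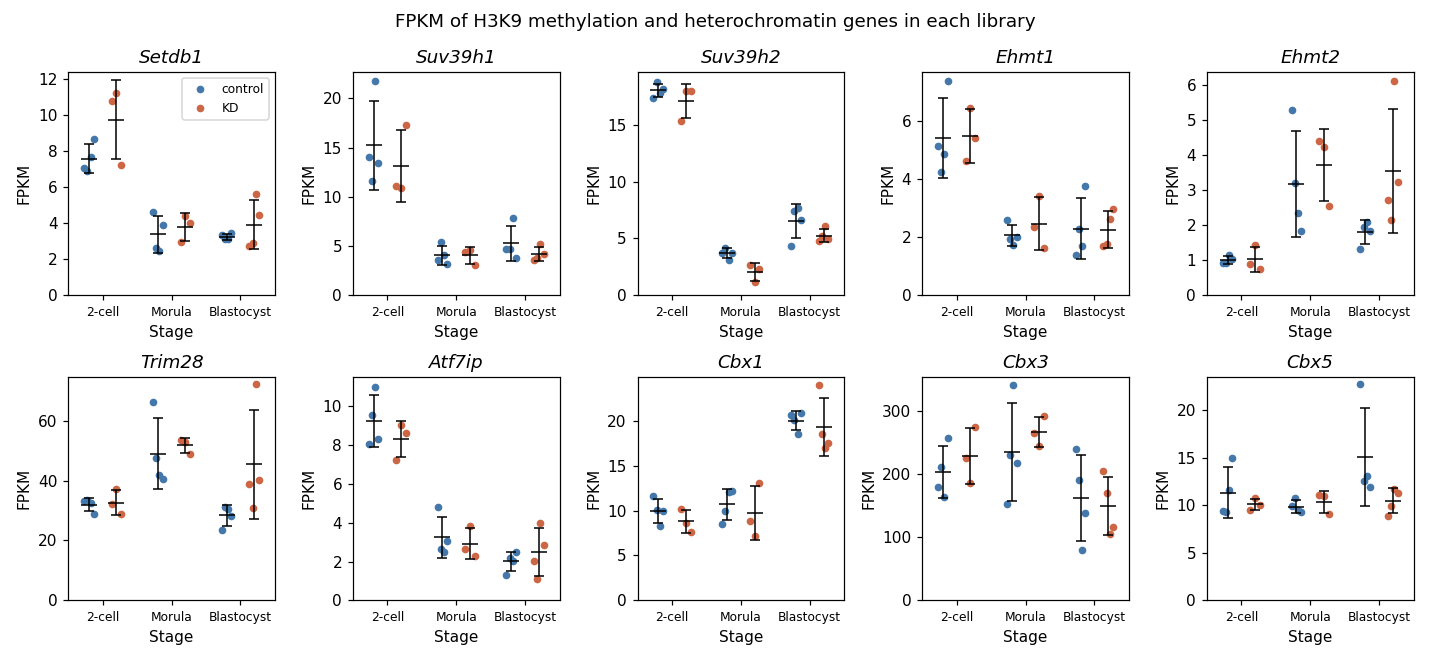
FPKM of the 10 genes in each of the 22 libraries, by stage and by control or KD, with an FPKM axis from 0 for each gene; points are libraries, and the lines are the mean and SD of each group. Suv39h2 was between 17.4 and 18.8 FPKM in 2-cell controls and between 3.10 and 4.18 FPKM in control morulae.

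The first question about the controls was how the machinery changed from the 2-cell stage, when maternal transcripts are still abundant, to the morula. Most methyltransferase genes fell over this interval, and the gene of the EHMT2 subunit went the other way from that of its partner EHMT1. Of the 10 genes, 2 were called higher and 5 lower, against 39.0% of the 15697 genes tested called higher and 41.3% called lower. The median log2 fold change was -0.74 over the 10 genes and -0.02 over all genes tested. Most genes of the embryo were called at this transition, so 7 calls among the 10 genes are near the share among all genes. With FPKM as deposited, without the scaling, the median of all genes was 0.09 in place of -0.02, and the 7 called genes kept their direction.

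Suv39h2 encodes a methyltransferase of pericentric heterochromatin. It was at 17.4, 18.8, 17.8 and 18.2 FPKM in the 2-cell controls and at 3.71, 4.18, 3.10 and 3.75 FPKM in the control morulae. The groups did not overlap, and the 2-cell libraries lay close together. Its log2 fold change was -2.18 (SE 0.15, adjusted p = 1.07e-11, limma). Suv39h1, its paralogue on the X chromosome, went from between 11.6 and 21.8 FPKM to between 3.19 and 5.36 FPKM, a log2 fold change of -1.82 (SE 0.20, adjusted p = 1.62e-08, limma). Setdb1, the methyltransferase gene of the TRIM28 pathway, went from between 6.89 and 8.66 FPKM to between 2.45 and 4.61 FPKM, a log2 fold change of -1.14 (SE 0.18, adjusted p = 3.64e-06, limma). None of these 3 genes overlapped between the stages.

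The EHMT1 and EHMT2 proteins form a heterodimer, and their genes moved in opposite directions. Ehmt1 was at 5.12, 4.24, 4.86 and 7.37 FPKM in 2-cell controls and at 2.59, 1.92, 1.71 and 1.98 FPKM in control morulae. Ehmt2 was at 0.913, 0.915, 1.14 and 1.03 FPKM in 2-cell controls and at 5.28, 3.21, 2.36 and 1.82 FPKM in control morulae. Neither gene overlapped between the stages: every morula library was below the 2-cell libraries for Ehmt1 and above them for Ehmt2. Within the control morulae Ehmt2 had the order of the difference by GC content, which was 0.249, 0.0753, -0.123 and -0.139. The part of base composition in the change of Ehmt2 was not tested. On the log2 scale Ehmt1 changed by -1.19 (SE 0.19, adjusted p = 6.47e-06, limma). Ehmt2 changed by 0.86 (SE 0.20, adjusted p = 0.000381, limma), and both were called without any 1 of the 8 control libraries of these stages. The ratio of Ehmt1 to Ehmt2 FPKM was 5.42 ± 1.30 in 2-cell controls, 0.726 ± 0.262 in control morulae and 1.27 ± 0.543 in control blastocysts (SD, n = 4 each).

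Among the SETDB1 partners, Atf7ip, whose protein stabilises SETDB1, went from between 8.09 and 11.0 FPKM to between 2.47 and 4.81 FPKM. On the log2 scale it changed by -1.44 (SE 0.19, adjusted p = 3.26e-07, limma). Trim28, the corepressor gene, was at 33.2, 33.4, 32.6 and 28.7 FPKM in 2-cell controls and at 66.1, 47.6, 41.8 and 40.5 FPKM in control morulae. The morulae were all above the 2-cell embryos, with replicate 1, one of the 3 furthest in base composition, the highest. As for Ehmt2, the order of the control morulae in FPKM as deposited was that of the difference by GC content, whose part was not tested. That difference was taken after scaling. The scaling within the stage divides control morula replicates 7 and 8 by 1.03 and 0.984, which reverses these 2 for Trim28. On the log2 scale Trim28 changed by 0.39 (SE 0.16, adjusted p = 0.0319, limma). This call was lost without 2-cell control replicate 4 (0.35, adjusted p = 0.0759, limma), without 2-cell control replicate 5 (0.32, adjusted p = 0.0995, limma) or without control morula replicate 1 (0.29, adjusted p = 0.116, limma). The ratio of Trim28 to Setdb1 FPKM went from 4.28 ± 0.688 to 15.1 ± 3.47 (SD, n = 4 each).

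The HP1 genes, whose proteins read the mark, were not called between these stages. The log2 fold change was -0.08 for Cbx1 (95% interval -0.50 to 0.34), -0.01 for Cbx3 (95% interval -0.69 to 0.67) and -0.33 for Cbx5 (95% interval -0.72 to 0.06). The summed FPKM of the 5 methyltransferase genes was 47.2 ± 4.80 at the 2-cell stage and 16.3 ± 2.73 in control morulae, while that of the 3 HP1 genes was 225 ± 43.4 and 256 ± 79.4 (SD, n = 4 each). Cbx3 shares stretches of sequence with 10 processed pseudogenes, and reads of the gene and of these copies cannot be told apart.

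Beyond the 10, a list of 39 further genes of the pathway covered other methyltransferases, their partners, the HUSH and MORC proteins, heterochromatin assembly and H4K20 methylation, and H3K9 demethylases. From the 2-cell stage to the morula in controls, 32 of them were tested, of which 3 were called higher and 26 lower, with a median log2 fold change of -1.19, against 39.0% higher and 41.3% lower and a median of -0.02 over all genes tested. The other 7, Prdm16, Mecom, Wiz, Kmt5c, Kdm4b, Kdm4d and Phf2, were too low to be tested in any comparison. The 3 called higher were Cdyl2 (1.93), the assembly factor gene Chaf1b (1.29) and Lbr (0.49), which encodes a nuclear envelope protein that binds HP1. Lower calls covered 6 of the 7 demethylase genes tested, 5 of the 6 HUSH and MORC genes, 7 of the 9 assembly genes and 6 of the 8 partner genes. The log2 fold changes of the 26 lower genes ran from -3.34 to -0.42.

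From morula to blastocyst, when the trophectoderm and the inner cell mass separate, the controls showed changes of both signs among the 10 genes. Cbx1, Cbx5 and Suv39h2 rose while Trim28 and Ehmt2 fell back. Of the 10, 3 were called higher and 2 lower, against 24.5% of the 15697 genes tested called higher and 20.6% called lower. The median log2 fold change was 0.04 over the 10 genes and 0.00 over all genes tested. This comparison uses the same control morulae as the one before it.

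Cbx1, the HP1β gene, was at 8.53, 10.0, 12.1 and 12.2 FPKM in control morulae and at 20.7, 20.1, 18.5 and 20.9 FPKM in control blastocysts. The blastocysts were all above the morulae and close to each other. Its log2 fold change was 0.87 (SE 0.20, adjusted p = 0.00118, limma), and it was called without any 1 of the 8 libraries. Cbx5, the HP1α gene, was at 9.90, 10.7, 9.51 and 9.28 FPKM in control morulae and at 22.8, 12.6, 13.1 and 11.9 FPKM in control blastocysts. Its blastocysts were above its morulae too, with replicate 1 far above the others. For Cbx5 the log2 fold change was 0.53 (SE 0.19, adjusted p = 0.0232, limma). Without control blastocyst replicate 1 it was 0.27 and was not called (adjusted p = 0.120, limma), and without control morula replicate 1 it was 0.49 and was not called (adjusted p = 0.0614, limma). A fit of these 2 groups alone gave 0.44 (adjusted p = 0.121, limma), and the fit without the 3 libraries furthest in base composition gave 0.22 (adjusted p = 0.237, limma). Over the alternatives tried the adjusted p of Cbx5 ran from 0.0122 to 0.237.

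Suv39h2 rose again, with control blastocysts at 4.35, 7.40, 7.72 and 6.66 FPKM. All 4 were above the control morulae and below the 2-cell controls. From morula to blastocyst its log2 fold change was 0.66 (SE 0.15, adjusted p = 0.00105, limma), and it was called without any 1 of the 8 libraries. Suv39h1 was between 3.78 and 7.80 FPKM in control blastocysts and was not called (0.29, 95% interval -0.11 to 0.70). Setdb1 was between 3.11 and 3.43 FPKM and Ehmt1 between 1.38 and 3.77 FPKM, and neither was called.

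Trim28 was at 23.6, 31.3, 30.4 and 28.1 FPKM in control blastocysts, all below the control morulae. It fell by 0.73 on the log2 scale (SE 0.16, adjusted p = 0.000734, limma), and it was called without any 1 of the 8 libraries. Ehmt2 was at 1.32, 1.94, 2.09 and 1.83 FPKM, which overlapped with the control morulae in FPKM as deposited. Its log2 fold change was -0.49 (SE 0.20, adjusted p = 0.0463, limma). The call of Ehmt2 was lost in 6 of the 8 fits that left out a library: without control morula replicate 1 (-0.32, adjusted p = 0.207, limma) or 2 (-0.46, adjusted p = 0.0997), and without control blastocyst replicate 1 (-0.44, adjusted p = 0.107), 4 (-0.50, adjusted p = 0.0682), 5 (-0.51, adjusted p = 0.0614) or 6 (-0.49, adjusted p = 0.0776). It was also lost without the 3 libraries furthest in base composition (-0.27, adjusted p = 0.235, limma), with a pseudocount of 0.1 (adjusted p = 0.0505), without the filter (adjusted p = 0.102) and with FPKM as deposited (adjusted p = 0.0797).

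Atf7ip and Cbx3 were lower in control blastocysts without being called. Atf7ip was between 1.30 and 2.49 FPKM, with a log2 fold change of -0.46 (95% interval -0.85 to -0.07, adjusted p = 0.0521, limma). It was called without control morula replicate 7 (-0.53, adjusted p = 0.0410, limma) or control blastocyst replicate 6 (-0.52, adjusted p = 0.0460, limma), and in a fit of these 2 groups alone (-0.54, adjusted p = 0.0201, limma). Cbx3 was at 153, 230.4, 342 and 219 FPKM in control morulae and at 239.6, 190.4, 80.6 and 138 FPKM in control blastocysts. The groups overlapped, with control blastocyst replicate 1 the highest of its group. In control morula replicate 8 the pseudogene Cbx3-ps6 was listed at 289.7 FPKM beside Cbx3, and without this library the log2 fold change of Cbx3 was -0.55 and was not called (adjusted p = 0.245, limma). For Cbx3 the log2 fold change was -0.57 (95% interval -1.25 to 0.11, adjusted p = 0.170, limma), and without control blastocyst replicate 1 it was -0.86 and was called (adjusted p = 0.0366, limma). Without control blastocyst replicate 5, the lowest of its group, it was -0.23 (adjusted p = 0.610, limma), and without control morula replicate 7, the highest of its group, it was -0.36 (adjusted p = 0.450, limma). Without the 3 libraries furthest in base composition Cbx3 was called lower too (-1.10, adjusted p = 0.00534, limma).

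Of the 39 further pathway genes, 4 were called higher and 10 lower among 32 tested from morula to blastocyst in controls, against 24.5% and 20.6% of all genes tested. The 4 higher were Uhrf1 (log2 fold change 1.66), which links H3K9 methylation to DNA methylation, the HUSH gene Mphosph8 (0.95), the imprint factor gene Zfp57 (0.72) and Adnp (0.61). The log2 fold changes of the 10 lower genes ran from -1.19 to -0.46.

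In 2-cell embryos the question was whether the knockdown changed the 10 genes soon after the first zygotic transcription. The 10 genes gave no call at this stage, and neither did any other gene. Of the 10 genes, 0 were called higher and 0 lower by limma, and of the 12160 genes tested 0% were called higher and 0% lower. Without 2-cell control replicate 2 the fit called 1 gene, and without 2-cell KD replicate 1 it called 3 genes, none of them among the 10. At an unadjusted p under 0.05, 0 of the 10 genes and 701 of all genes tested passed. The log2 fold changes of the 10 had a median of 0.01. Setdb1 had the largest, 0.37 (95% interval -0.04 to 0.77, adjusted p = 0.828, limma), with 10.8, 11.2 and 7.25 FPKM in the KD embryos, which overlapped with the controls. The KD and control ranges overlapped for each of the 10 genes. Among the 39 further pathway genes, 31 were tested and 0 were called in either direction by limma, with 5 at an unadjusted p under 0.05.

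In morulae the knockdown of H2afz was strong, and the question was whether the H3K9 machinery followed. None of the 10 genes was called by limma, though Suv39h2 was lower in each KD library than in each control. Of the 10 genes, 0 were called higher and 0 lower, against 4.23% of the 10989 genes tested called higher and 9.04% called lower. At an unadjusted p under 0.05, 1 of the 10 and 3352 of all genes tested passed. The number of genes called in either direction, 1458, was 910 without control morula replicate 7, 855 without control replicate 8, 579 without KD replicate 1 and 551 without KD replicate 2. With FPKM as deposited, 281 genes were called higher and 1553 lower, against 465 and 993 in the main fit. A term for low against high replicate numbers gave 777 and 1261. The median log2 fold change was 0.20 over the 10 genes and 0.02 over all genes tested.

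Suv39h2 was at 3.71, 4.18, 3.10 and 3.75 FPKM in the control morulae and at 2.66, 1.15 and 2.31 FPKM in the KD morulae. The KD libraries were all below the controls, and KD replicate 2 was the lowest of the 22 libraries. Its log2 fold change was -0.57 (95% interval -1.02 to -0.11, adjusted p = 0.0935, limma), and it was not called in any fit that left out a library, where it ran from -0.69 to -0.33. At the blastocyst stage the groups overlapped, with 4.75, 5.18, 6.10 and 4.97 FPKM in KD embryos, and the log2 fold change was -0.24 (95% interval -0.61 to 0.13). The interaction test of the KD effect in blastocysts against that in morulae gave 0.27 for Suv39h2 (95% interval -0.19 to 0.74, adjusted p = 0.541, limma; 0.05 without KD morula replicate 2), so the effects were not shown to differ between the stages.

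The other 9 genes overlapped between control and KD morulae. Their log2 fold changes ran from -0.04 for Cbx1 to 0.36 for Cbx3 (95% interval -0.22 to 0.95), which ran from 0.11 to 0.57 with 1 library left out. In control morula replicate 8 the pseudogene Cbx3-ps6 was listed at 289.7 FPKM, and its reads cannot be told apart from those of Cbx3. The level of Cbx3 in this control library is therefore uncertain. Ehmt2 was between 2.54 and 4.39 FPKM in KD morulae, and its log2 fold change was 0.32 (95% interval -0.21 to 0.85; 0.18 to 0.50 with 1 library left out). Trim28 was between 49.0 and 53.6 FPKM, and its log2 fold change was 0.23 (95% interval -0.10 to 0.56). With the replicate numbers taken as a block, Cbx3 was called higher in KD morulae (0.61, adjusted p = 0.0387, limma, which over the alternatives ran to 0.688). Only replicate numbers 1 and 2 occur in both morula groups, so this blocked value rests on the libraries of these numbers. Among the 39 further pathway genes, 28 were tested, of which 1 was called higher and 0 lower by limma, against 4.23% and 9.04% of all genes tested, and 6 were at an unadjusted p under 0.05. Zfp644, whose protein partners with the EHMT1 and EHMT2 complex, was at 0.702, 0.531, 0.515 and 0.462 FPKM in control morulae and at 1.10, 1.48 and 1.01 FPKM in KD morulae. The KD libraries were all above the controls, and the log2 fold change was 0.55 (SE 0.15, adjusted p = 0.0320, limma). Zfp644 reached the minimum of 1 FPKM in 3 KD and 0 control libraries, so it was tested through the KD group alone, which favours a higher call, and without the filter it was not called (adjusted p = 0.0781, limma).

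Blastocysts are the stage at which the most genes differed between KD and control among the 3 stages. Here 2 members of the H3K9 machinery were higher in KD embryos, the corepressor gene Trim28 and the G9a gene Ehmt2. Cbx5 was lower in each KD library than in each control without being called. Of the 10 genes, 2 were called higher and 0 lower, against 16.7% of the 11828 genes tested called higher and 19.8% called lower. The share called higher among the 10 is close to that among all genes. The median log2 fold change was -0.01 over the 10 genes and 0.00 over all genes tested. The authors report that the knockdown strongly reduced blastocyst formation. How the KD embryos of this stage were selected for the RNA-seq is not stated, and the part of such a selection was not tested.

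Ehmt2 was at 1.32, 1.94, 2.09 and 1.83 FPKM in control blastocysts and at 2.71, 2.13, 6.10 and 3.23 FPKM in KD blastocysts. All KD libraries were above all controls, and KD replicate 5 was by far the highest. KD over control gave a log2 fold change of 0.64 (SE 0.21, 95% interval 0.18 to 1.09, adjusted p = 0.0312, limma). The call was lost without control blastocyst replicate 1 (0.58, adjusted p = 0.0750, limma), 4 (0.65, adjusted p = 0.0604) or 6 (0.64, adjusted p = 0.0628), and without KD blastocyst replicate 5 (0.44, adjusted p = 0.0626) or 6 (0.65, adjusted p = 0.0578). It held in the other 3 fits that left out a library. With FPKM as deposited (adjusted p = 0.0609, limma) and without the filter (adjusted p = 0.0959, limma) it was lost as well, and the adjusted p over all alternatives ran from 0.0143 to 0.116. Ehmt2 had a log2 fold change above 0 in each of these fits.

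Trim28 was at 23.6, 31.3, 30.4 and 28.1 FPKM in control blastocysts and at 38.8, 30.9, 72.1 and 40.1 FPKM in KD blastocysts. In FPKM as deposited the groups overlapped, since KD replicate 4 lay below control replicate 4. The scaling divides these 2 libraries by 0.961 and 1.05, which reverses their order in the tested values. KD replicate 5 was again far above the others. KD over control gave a log2 fold change of 0.60 (SE 0.20, 95% interval 0.17 to 1.03, adjusted p = 0.0309, limma). The call was lost without control blastocyst replicate 1 (0.57, adjusted p = 0.0631, limma), 4 (0.63, adjusted p = 0.0550), 5 (0.60, adjusted p = 0.0561) or 6 (0.59, adjusted p = 0.0716), and without KD blastocyst replicate 1 (0.63, adjusted p = 0.0507), 5 (0.42, adjusted p = 0.0559) or 6 (0.65, adjusted p = 0.0503). It held without KD blastocyst replicate 4. As for Ehmt2, it was lost with FPKM as deposited (adjusted p = 0.0616, limma) and without the filter (adjusted p = 0.0946, limma), and the adjusted p over all alternatives ran from 0.0134 to 0.0946. The ratio of Trim28 to Setdb1 FPKM was 8.77 ± 1.41 in control and 11.7 ± 2.35 in KD blastocysts (SD, n = 4 each).

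Base composition moved with these results, and both it and gene length with the order of the libraries. In the most GC-rich of the 4 groups of genes by GC content, 2953 genes tested in blastocysts that include Ehmt2 and Trim28, the median log2 fold change of KD over control was 0.17. In the most GC-poor, 2954 genes that include Suv39h2, Cbx3 and Cbx5, it was -0.13. Without the 3 libraries furthest in base composition these medians were 0.09 and -0.08, the log2 fold change of Ehmt2 was 0.39 (adjusted p = 0.116, limma) and that of Trim28 was 0.38 (adjusted p = 0.0777, limma). With the genes divided into 4 groups by exonic length, the difference between the longest and the shortest, on the log2 scale and relative to the group of libraries, was -0.240, 0.104, 0.125 and -0.0423 in control blastocysts and -0.00443, -0.193, 0.231 and 0.0128 in KD blastocysts. The same difference by GC content was -0.273, 0.00257, 0.171 and 0.0344 in control blastocysts and -0.0368, -0.122, 0.187 and 0.0166 in KD blastocysts. Within the KD libraries the FPKM of Ehmt2 and Trim28 as deposited had the same order as both differences, with replicate 4 the lowest and replicate 5 the highest. Both differences were taken after scaling. The scaling divides KD replicates 1 and 6 by 0.950 and 1.02, which reverses these 2 libraries for Trim28. In controls Ehmt2 had the order of the difference by length too, Trim28 had it except for replicates 4 and 5, and replicate 1 was the lowest in both genes and both differences. Between KD and control, the median log2 fold change was 0.00 in the longest of the 4 groups, which includes Ehmt2, and 0.01 in the next, which includes Trim28. The part of base composition and of gene length in the higher Ehmt2 and Trim28 was not tested. Neither gene was shown to respond differently at the 2 stages: the interaction of blastocyst against morula gave 0.26 for Ehmt2 (95% interval -0.34 to 0.86, adjusted p = 0.695, limma) and 0.31 for Trim28 (95% interval -0.18 to 0.81, adjusted p = 0.493, limma). With 1 library left out in turn these ran from 0.06 to 0.39 for Ehmt2 and from 0.12 to 0.43 for Trim28, both lowest without KD blastocyst replicate 5. Without the 3 libraries furthest in base composition the interaction of Ehmt2 changed sign to -0.15 (adjusted p = 0.873, limma).

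Cbx5 was at 22.8, 12.6, 13.1 and 11.9 FPKM in control blastocysts and at 8.86, 9.93, 11.8 and 11.3 FPKM in KD blastocysts. Each KD library was below each control, by a small margin except for control replicate 1. Its log2 fold change was -0.44 (95% interval -0.95 to 0.06, adjusted p = 0.153, limma), and without control replicate 1 it was -0.19. Cbx1 was between 17.0 and 24.0 FPKM in KD blastocysts and Cbx3 between 105.6 and 205 FPKM, and both overlapped with the controls. Cbx1 had a log2 fold change of -0.06 (95% interval -0.46 to 0.34) and Cbx3 one of -0.05 (95% interval -0.83 to 0.73). In KD blastocyst replicate 1 the pseudogene Cbx3-ps6 was listed at 208 FPKM, so the level of Cbx3 in this library is uncertain. The 4 other methyltransferase genes and Atf7ip also overlapped between control and KD blastocysts, with log2 fold changes from -0.24 for Suv39h2 to 0.17 for Setdb1.

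**Figure D2:**
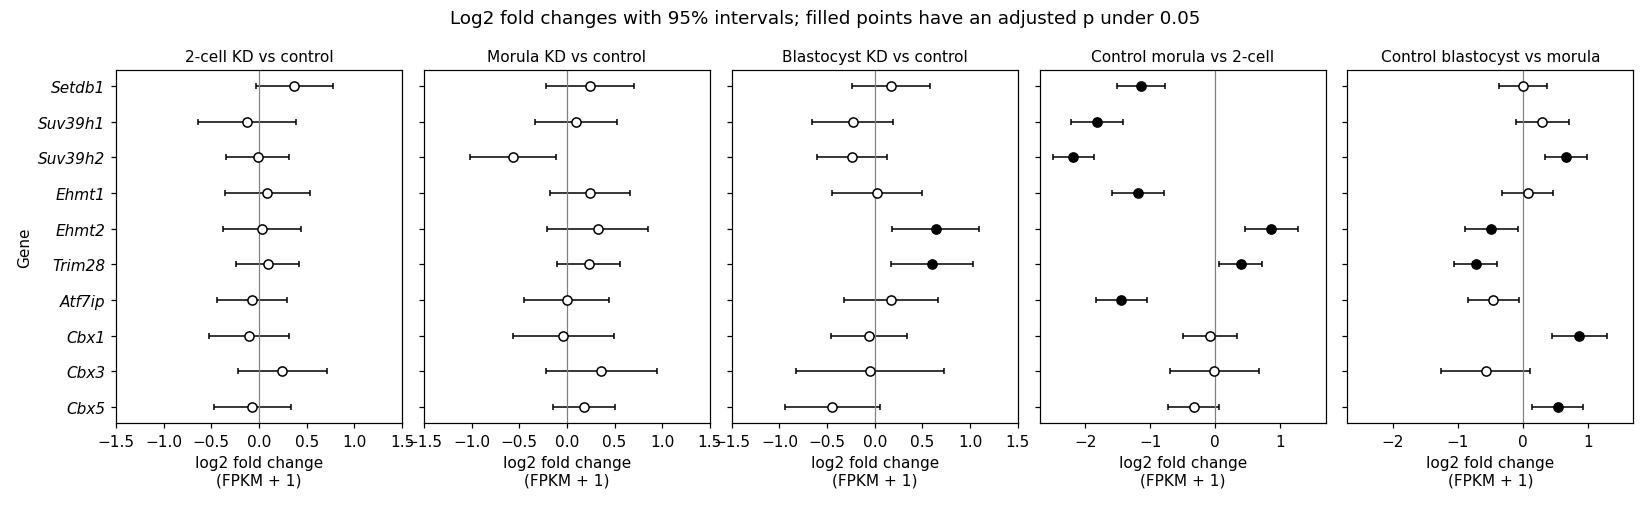
Log2 fold changes of the 10 genes with 95% intervals in the comparisons of KD with control at each stage and of the control stages with each other, the latter on a wider axis; filled points are called by limma at an adjusted p under 0.05. In KD blastocysts the intervals of Ehmt2 (0.18 to 1.09) and Trim28 (0.17 to 1.03) lie above 0.

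Of the 39 further pathway genes, 29 were tested in blastocysts, of which 4 were called higher in KD embryos and 1 lower, against 16.7% and 19.8% of all genes tested. Both shares were below those of all genes, so the calls are values of single genes and not a result about the pathway. Kdm7a, an H3K9 and H3K27 demethylase gene, was at 0.791, 0.674, 0.699 and 0.806 FPKM in controls and at 1.66, 1.33, 2.64 and 1.72 FPKM in KD embryos (log2 fold change 0.68, adjusted p = 0.00514, limma). Morc3, which encodes a heterochromatin ATPase, was at 11.9, 15.3, 14.6 and 14.4 FPKM in controls and at 19.2, 21.9, 20.6 and 23.0 FPKM in KD embryos (0.57, adjusted p = 0.0107, limma). For both genes every KD library was above every control. Kdm7a reached the minimum of 1 FPKM in 4 KD and 0 control libraries, so the filter favoured a higher call. Without the filter Kdm7a (adjusted p = 0.0159) and Morc3 (adjusted p = 0.0104) kept their calls by limma, while Resf1, Morc2a and Adnp, described next, lost theirs (adjusted p from 0.0660 to 0.0855). Resf1, whose protein works with SETDB1, was at 10.3, 17.8, 7.64 and 8.38 FPKM in controls and at 21.4, 16.5, 20.2 and 25.7 FPKM in KD embryos (0.93, adjusted p = 0.0113, limma). Its groups overlapped in FPKM as deposited, with control replicate 4 above KD replicate 4. The scaling divides them by 1.05 and 0.961, which reverses these 2 libraries. Morc2a, which works with the HUSH complex, was at 1.73, 1.57, 1.99 and 2.32 FPKM in controls and at 3.57, 2.40, 4.17 and 2.43 FPKM in KD embryos (0.50, adjusted p = 0.0467, limma). Its KD libraries were all above its controls. Adnp, which encodes an HP1-binding zinc finger protein, was at 4.83, 3.67, 3.30 and 4.95 FPKM in controls and at 1.82, 2.44, 3.35 and 2.54 FPKM in KD embryos (-0.55, adjusted p = 0.0397, limma). Its groups overlapped in FPKM as deposited by 1 KD library, replicate 5, above the lowest control, also replicate 5. The scaling divides them by 1.13 and 1.09, which reverses these 2 libraries.

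Stage markers also differed between the KD and control embryos. The summed FPKM of the trophectoderm markers was 659 ± 95.8 in KD blastocysts against 1178 ± 239.5 in controls (SD, n = 4 each), and 1 of the 4 genes, the most abundant, Krt18, was called lower (log2 fold change -1.02, adjusted p = 0.00126, limma). That of the inner cell mass markers Pou5f1, Nanog and Sox2 was 188 ± 62.3 against 148 ± 48.3, with 0 of 3 called by limma and 1 at an unadjusted p under 0.05. The 2-cell markers summed to 3.51 ± 1.75 FPKM against 0.434 ± 0.287, and Zfp352, the 1 of 3 that was tested, was called higher (1.56, adjusted p = 0.00157, limma). It reached 1 FPKM in 4 KD and 0 control blastocyst libraries, so the filter favoured this call, which was kept without the filter (adjusted p = 0.0265, limma). In morulae the inner cell mass markers summed to 39.9 ± 8.83 FPKM in KD (n = 3) against 138 ± 19.6 in control embryos (n = 4), and Nanog was called lower (-2.23, adjusted p = 0.00647, limma), a call that was lost without the filter (adjusted p = 0.0719). Of the blood markers 1 of 3 was tested, Hba-a1, which was called higher in KD morulae (1.20, adjusted p = 0.0172, limma) and in KD blastocysts (0.79, adjusted p = 0.00985, limma), the former only with the filter (adjusted p = 0.110 without it), while their summed FPKM had group means between 1.28 and 5.67. The part of these differences in the values of the 10 genes was not tested.

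Within KD embryos the passage from morula to blastocyst was followed in the same way as in controls. Suv39h2 and Cbx1 rose in KD embryos as they did in controls, and Cbx3 fell. Of the 10 genes, 2 were called higher and 1 lower, against 16.3% of the 15697 genes tested called higher and 14.0% called lower. Suv39h2 had a log2 fold change of 0.93 (SE 0.16, adjusted p = 0.000151, limma), did not overlap between the stages, and was called without any 1 of the 7 libraries. Cbx1 had a log2 fold change of 0.79 (SE 0.22, adjusted p = 0.00813, limma), did not overlap either, and was called except without KD morula replicate 2 (0.62, adjusted p = 0.0709, limma).

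Cbx3, the HP1γ gene, was at 266, 244 and 292 FPKM in KD morulae and at 205, 171, 106 and 117 FPKM in KD blastocysts. All KD blastocysts were below all KD morulae in these values. In KD blastocyst replicate 1, however, the pseudogene Cbx3-ps6 was listed at 208 FPKM, and its reads cannot be told apart from those of Cbx3, so the level of Cbx3 in this library is uncertain. Cbx3 had a log2 fold change of -1.05 (SE 0.36, adjusted p = 0.0284, limma), and without this library it was -1.24 (adjusted p = 0.0148). The call was lost without KD morula replicate 1 (-1.08, adjusted p = 0.0622, limma), 2 (-1.11, adjusted p = 0.0590) or 6 (-0.96, adjusted p = 0.0923), and without KD blastocyst replicate 5 (-0.85, adjusted p = 0.0925) or 6 (-0.94, adjusted p = 0.0757), and without the filter (adjusted p = 0.0991). Trim28 was not called in KD embryos (-0.42, 95% interval -0.78 to -0.05, adjusted p = 0.0780, limma), but without KD blastocyst replicate 5 it was called lower (-0.61, adjusted p = 0.00368, limma), as it was without the 3 libraries furthest in base composition (-0.61, adjusted p = 0.00179, limma). Of the 39 further genes, 2 were called higher, Uhrf1 (1.30) and Mphosph8 (0.81), and 11 lower among 32 tested, against 16.3% and 14.0% of all genes tested.

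The interaction test asked directly whether the KD effect in blastocysts differed from that in morulae. None of the 10 genes passed it. Of the 10, 0 were called higher and 0 lower by limma, against 4.06% of the 15697 genes tested called higher and 5.28% called lower. At an unadjusted p under 0.05, 1 of the 10 passed, as did 3583 of all genes tested. That gene was Cbx5, with an interaction of -0.67 on the log2 scale (95% interval -1.24 to -0.10, adjusted p = 0.137, limma). It was -0.41 without control blastocyst replicate 1 (adjusted p = 0.236, limma), the library with the far value of Cbx5. For Cbx3, whose blastocysts were lower than morulae with a call in KD embryos and without one in controls, the interaction was -0.47 (95% interval -1.48 to 0.53, adjusted p = 0.654, limma), and it ran from -0.82 to -0.19 with 1 library left out in turn. Without the 3 libraries furthest in base composition it changed sign to 0.25 (adjusted p = 0.889, limma). Among the 39 further pathway genes, 0 were called higher and 1 lower, Adnp (-0.94, adjusted p = 0.0170, limma).

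The 10 genes differed among themselves in how they ran together over the 22 libraries, which share the 6 groups of stage and treatment, so these correlations mostly describe the groups. On the log2 scale, Ehmt1 and Atf7ip had a Pearson r of 0.911, Setdb1 and Atf7ip 0.908, Setdb1 and Ehmt1 0.902, and Suv39h1 and Suv39h2 0.892. Ehmt2 and Trim28 had an r of 0.721, while Suv39h2 and Ehmt2 had an r of -0.828. Over the 15697 genes tested and the 22 libraries, the gene most like Suv39h2 was Svip (r = 0.989), that most like Atf7ip was Raver1 (0.975) and that most like Suv39h1 was Cnst (0.969). Next came Ehmt2 with Spi1 (0.957), Trim28 with Ulk1 (0.955), Setdb1 with Lonrf1 (0.954) and Ehmt1 with Cdk11b (0.943). The HP1 genes had the weakest likeness, with Pigyl for Cbx1 (0.917), Brix1 for Cbx3 (0.874) and Atg10 for Cbx5 (0.774).

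In the annotation (GRCm38, GENCODE M21), Setdb1 (ENSMUSG00000015697.14) lies on chromosome 3 from 95323525 to 95357202. Suv39h1 (ENSMUSG00000039231.18) lies on chromosome X from 8061171 to 8074760. Suv39h2 (ENSMUSG00000026646.16) and Ehmt1 (ENSMUSG00000036893.17) lie on chromosome 2, the former from 3455815 to 3475031 and the latter from 24789928 to 24919614. Ehmt2 (ENSMUSG00000013787.15) lies on chromosome 17 from 34898469 to 34914052. Trim28 (ENSMUSG00000005566.14) lies on chromosome 7 from 12999114 to 13031035. Atf7ip (ENSMUSG00000030213.12) and Cbx3 (ENSMUSG00000029836.15) lie on chromosome 6, the former from 136506167 to 136610862 and the latter from 51470360 to 51483704. Cbx1 (ENSMUSG00000018666.13) is on chromosome 11 from 96789127 to 96808640, and Cbx5 (ENSMUSG00000009575.14) is on chromosome 15 from 103191544 to 103239816. All 10 are annotated as protein-coding.

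Some FPKM may hold reads of other genes, since the libraries do not keep the strand. Of the 4410 exonic bases of Suv39h2, 357 overlap exons of Dclre1c on the other strand, which had a mean of 0.427 FPKM in 2-cell controls, 11.0 FPKM in control morulae and 5.33 FPKM in control blastocysts. Of the 5270 exonic bases of Suv39h1, 767 overlap the antisense gene Gm14820, at 11.1 FPKM in 2-cell controls and 1.23 FPKM in control morulae. Of the 6853 exonic bases of Setdb1, 75 overlap Cers2, at 12.3 FPKM in 2-cell controls, 139 FPKM in control morulae and 91.0 FPKM in control blastocysts. Of the same bases, 249 overlap Gm37500, at 0.490 FPKM in 2-cell controls and less in the other groups. Reads in the shared bases cannot be told apart. A search for stretches shared by transcripts in the same direction finds every one of at least 75 bases. In it Atf7ip shared sequence with 210 other genes, Setdb1 with 6 and Ehmt2 with 2. Suv39h1, Suv39h2, Ehmt1, Trim28, Cbx1 and Cbx5 shared none of this length in that direction. The opposite direction, in which Suv39h1 and Suv39h2 overlap the genes named above, was not searched. The most sequence that Setdb1 shares is with the lincRNA gene Gm4349, at 20.6 FPKM in 2-cell controls, 4.33 FPKM in control morulae and 9.33 FPKM in control blastocysts, which fell from 2-cell to morula as Setdb1 did. Of the 10 pseudogenes that share sequence with Cbx3, Cbx3-ps6 was listed at 289.7 FPKM in control morula replicate 8, 208 FPKM in KD blastocyst replicate 1 and 19.3 FPKM in 2-cell control replicate 1, and at 2.07 FPKM or less in the other 19 libraries.

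All 10 genes were matched by symbol to the RefSeq promoter table (GRCm38.p6), with 14 promoters of 300 bases. They held a median of 29 CpG (8 to 40), against a median of 7 (quartiles 3 and 20) over the 32851 promoters of 27025 genes. Promoters are shown for Ehmt2 and Trim28, which were called higher in KD blastocysts, and for Suv39h2, which was lower in each KD morula library than in each control without being called. They are given by their 200 bases before the start of transcription, none of them annotated as exon. Capitals mark CpG, the letters CG, and a capital C at the very end belongs to a CpG whose G is the next base. The Suv39h2 promoter (chr2:3475037-3475236, minus strand) holds 21 CpG in these bases, the Trim28 promoter (chr7:13023902-13024101, plus strand) holds 12, and the first of the Ehmt2 promoters in the table (chr17:34898224-34898423, plus strand) holds 10. Of all promoters of 300 bases, 8.56% had at least the 33 CpG of that of Suv39h2 and 21.5% at least the 23 of that of Trim28. For the first Ehmt2 promoter, 14.2% had at least its 28 CpG. The second Ehmt2 promoter, whose sequence is not shown, holds 40 CpG, 31 of them in the 200 bases, and 3.91% had as many. The CpG are a description of the sequence.
Suv39h2: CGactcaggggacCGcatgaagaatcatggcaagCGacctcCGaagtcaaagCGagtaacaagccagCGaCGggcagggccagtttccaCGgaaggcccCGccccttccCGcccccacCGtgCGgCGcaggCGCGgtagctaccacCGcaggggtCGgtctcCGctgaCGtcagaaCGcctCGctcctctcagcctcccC
Trim28: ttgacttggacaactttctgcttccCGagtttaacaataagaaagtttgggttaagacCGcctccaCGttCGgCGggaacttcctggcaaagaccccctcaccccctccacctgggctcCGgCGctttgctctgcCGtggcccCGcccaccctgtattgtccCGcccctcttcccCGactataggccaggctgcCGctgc
Ehmt2: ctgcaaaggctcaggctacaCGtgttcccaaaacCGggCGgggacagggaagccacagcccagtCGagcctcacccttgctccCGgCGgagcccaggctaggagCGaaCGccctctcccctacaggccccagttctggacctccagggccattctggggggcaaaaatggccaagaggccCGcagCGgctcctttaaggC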

How the data were processed

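The authors aligned the reads with STAR to mm10 (GRCm38) and deposited gene levels as FPKM from StringTie 2.1.4. Their counts (featureCounts 1.6.2, DESeq2 1.30.1) are not in the files. Libraries were scaled with median-of-ratios size factors, taken within the stage for KD against control and over all 22 libraries for the other comparisons. Genes with at least 1 FPKM in at least 3 libraries of a fit were tested on log2(FPKM + 1). The tests used limma 3.58.1 (trend) in R 4.3.3. KD was compared with control within each stage, and the stages and the interaction in a fit of all libraries. Python 3.11.15, numpy 2.4.6, pandas 2.3.3 and matplotlib 3.10.9 were used for descriptions and plots. The fits were tested on simulated data. Alternatives were a pseudocount of 0.1, no filter, FPKM as deposited, replicate numbers as a block or by range, fits of the compared groups alone, each library left out in turn, and omission of 2 or 3 libraries with large deviations in base composition, the last chosen after seeing the data.

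The members and lists were chosen with earlier results of these data known. Named were the 10 members, each further pathway gene called in a comparison (counts where over 8 were called in a direction), H2afz, H2afv, the markers and the gene most like each member. The depth of the libraries is unknown, so no counting error is given. Promoters are from RefSeq, build GRCm38.p6.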

Additional observations from a re-analysis of the deposited data

Results flagged for a closer look

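In control blastocysts, replicate 1 had 22.8 FPKM of Cbx5, far above the other 3 libraries of its group, which had 12.6, 13.1 and 11.9 FPKM. The gap to the nearest of them was 0.891 of the whole range of the group. Dixon's test was applied to 40 groups, those of 4 libraries for the 10 genes, and chance alone gives about 1 such library in 20 groups. This library was also the furthest from its group in base composition, and the log2 fold changes of Cbx5 without it are given with the results on blastocysts.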

How the results depend on the processing

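The 7 calls among the 10 genes from 2-cell to morula in controls kept their direction under each alternative run, as did all other called members. The changes of sign were among genes that were not called. The cause of the changes below was not tested, except that no filter adds genes to the adjustment and an omission leaves fewer libraries. Of the log2 fold changes of the 10 genes under the alternatives other than the omission of 2 or 3 libraries, 819 kept their direction and their side of the threshold, 38 lost a call, 6 gained one and 54 changed sign.

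With FPKM as deposited, the members called higher in KD blastocysts were 0 and those called lower from morula to blastocyst in controls were 1. The log2 fold changes that changed sign were -0.00040 for Ehmt2 in 2-cell KD embryos, -0.0032 for Suv39h1 in KD morulae, 0.088 for Cbx1 and 0.18 for Cbx3 from 2-cell to morula, -0.014 for Setdb1 from morula to blastocyst in controls, and 0.014 for Setdb1, 0.054 for Suv39h1 and 0.010 for Cbx5 in KD embryos. In the interaction they were 0.027 for Setdb1 and 0.087 for Cbx1. The share of calls that were higher went from 31.9% to 15.3% in KD morulae, from 53.9% to 66.7% from morula to blastocyst in KD embryos, and from 43.5% to 54.8% in the interaction.

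With the replicate number as a block, Cbx5 was at 0.058 in 2-cell KD embryos and 1 member, Cbx3, was called higher in KD morulae (0.61). The number did not pair the libraries throughout: those of the same number had correlations of 0.209, 0.0146 and 0.214 among 2-cell libraries, 0.181 and 0.0944 among morulae, and 0.0860, -0.111, 0.354 and 0.00149 among blastocysts. Libraries of low and of high numbers did run together across treatments at the earlier stages. In morulae, controls 1 and 2 had correlations of 0.0944 to 0.181 with KD 1 and 2, controls 7 and 8 had 0.185 and 0.347 with KD 6, and the other pairs had -0.278 to -0.0945. In 2-cell embryos, controls 1 and 2 had 0.209 and 0.205 with KD 1, controls 4 and 5 had 0.214 and 0.163 with KD 4, the opposite pairs had -0.237 to -0.168, and KD 2 had -0.0211 to 0.0146. In morulae the calls, 465 higher and 993 lower, were 645 and 979 with the block and 777 and 1261 with a term for low against high numbers. With that term Cbx1 was at 0.059 in KD morulae.

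Without a filter, 412 genes were called in KD morulae, and the members called were 0 higher in KD blastocysts, 1 lower from morula to blastocyst in controls and 0 lower in KD embryos. With a pseudocount of 0.1, 1 member was called lower from morula to blastocyst in controls. In fits of the compared groups alone, Cbx1 was at 0.083 and Cbx3 at 0.17 from 2-cell to morula, and Setdb1 at -0.078 from morula to blastocyst in controls, where Atf7ip was called lower (-0.54) and Cbx5 lost its call (0.44).

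Without control morula replicate 1 and KD blastocyst replicate 5, an alternative chosen after seeing the data, 0 members were called higher in KD blastocysts. From morula to blastocyst, Ehmt2 (-0.31) and Cbx5 (0.49) lost their calls in controls and Cbx3 gained one (-0.81), while in KD embryos Cbx3 lost its call (-0.85) and Trim28 gained one (-0.61). Signs changed for Atf7ip in KD morulae (0.11), Cbx1 (0.049) and Cbx3 (0.15) in KD blastocysts, Cbx1 (0.067) and Cbx3 (0.24) from 2-cell to morula, and in the interaction for Ehmt2 (-0.11), Atf7ip (-0.14) and Cbx1 (0.16). Without control blastocyst replicate 1 as well, also chosen after seeing the data, 0 members were called higher in KD blastocysts, 2 were called lower from morula to blastocyst in KD embryos, with Trim28 gained (-0.61), and 887 genes passed the interaction. In controls Ehmt2 (-0.27) and Cbx5 (0.22) lost their calls and Cbx3 gained one (-1.10). Signs then changed for Ehmt1 (-0.11), Atf7ip (-0.077), Cbx1 (0.11) and Cbx3 (0.43) in KD blastocysts, Cbx1 (0.071) and Cbx3 (0.24) from 2-cell to morula, and in the interaction for Ehmt2 (-0.15), Atf7ip (-0.22), Cbx1 (0.24) and Cbx3 (0.25).

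When 1 library at a time was left out, Ehmt2 was too low to be tested in 2-cell embryos without control replicate 4, control replicate 5 or KD replicate 2. The number of genes called ran from 0 to 3 in 2-cell KD embryos and from 551 to 1744 in KD morulae. The members called higher ran from 0 to 2 in KD blastocysts, from 1 to 2 from 2-cell to morula, and from 1 to 2 from morula to blastocyst in KD embryos. Those called higher from morula to blastocyst in controls ran from 2 to 3. Those called lower ran from 1 to 3 from morula to blastocyst in controls and from 0 to 1 in KD embryos. Ranges that crossed 0 in 2-cell KD embryos were -0.35 to 0.016 for Suv39h1, -0.069 to 0.050 for Suv39h2, -0.12 to 0.0016 for Atf7ip and -0.13 to 0.058 for Cbx5. In KD morulae they were -0.17 to 0.11 for Atf7ip and -0.28 to 0.13 for Cbx1. In KD blastocysts they were -0.086 to 0.21 for Ehmt1, -0.19 to 0.049 for Cbx1 and -0.39 to 0.22 for Cbx3. From 2-cell to morula in controls they were -0.21 to 0.061 for Cbx1 and -0.22 to 0.23 for Cbx3. From morula to blastocyst in controls they were -0.089 to 0.089 for Setdb1 and -0.11 to 0.17 for Ehmt1, and in KD embryos -0.21 to 0.015 for Suv39h1 and -0.36 to 0.0077 for Ehmt1. In the interaction they were -0.24 to 0.16 for Cbx1 and -0.028 to 0.31 for Atf7ip.

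The read depth is unknown, and no limit of detection is given for low genes such as Ehmt2 and Ehmt1. The 95% intervals give the sizes that the spread between libraries allows. The methods describe experiments in general as repeated, but whether the libraries of a group are separate cultures is not stated for the RNA-seq, and the comparisons of stages share the morula libraries.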

Other observations

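The processed pseudogene Gm11517 lies within the Cbx1 gene on the other strand and shares no exonic base with it. It was chosen after its values were seen. Gm11517 was listed at 150.8, 143, 197 and 251 FPKM in control blastocysts and at 810.0, 821, 746 and 857 FPKM in KD blastocysts, with each KD library above each control. In control morulae it was at 2117, 2313, 1878 and 1897 FPKM, and in KD morulae at 3003, 3371 and 2636 FPKM. In 2-cell controls it was at 1051, 972, 911 and 954 FPKM, and in 2-cell KD embryos at 934, 1279 and 624 FPKM, with the groups overlapping.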
